A study of Mus musculus with 281 samples.

Results

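The secreted Wnt modulators examined here are 10 genes of the 47752 in the gene table of a single-cell study of the mouse stria vascularis. They were taken by name, with earlier results of these data known. They comprise the Dickkopf genes *Dkk1*, *Dkk2* and *Dkk3* and the secreted Frizzled-related genes *Sfrp1*, *Sfrp2*, *Sfrp5* and *Frzb*. The others are the Wnt inhibitory factor gene *Wif1* and the R-spondin genes *Rspo2* and *Rspo3*. The question was where in the stria each gene was transcribed and whether its level differed between *Slc26a4* genotypes. *Slc26a4* encodes pendrin, the anion exchanger that is lost in Pendred syndrome and carries bicarbonate into the endolymph.

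Wnt proteins are secreted ligands that bind Frizzled receptors together with the co-receptors LRP5 and LRP6. Secreted Frizzled-related proteins and WIF1 bind Wnts outside the cell, and DKK1 and DKK2 bind LRP5 and LRP6, so these proteins mostly dampen signaling. DKK3 is a divergent family member that is not a classical LRP ligand. R-spondins act in the other direction: they bind LGR4, LGR5 and LGR6 and keep the E3 ligases ZNRF3 and RNF43 from removing Frizzled receptors.

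Single cells were picked by micropipette from the dissociated stria of male 129S6 mice and were profiled with Smart-Seq2, a full-length RNA-seq method. Cells were labelled *Slc26a4*+/+ (P22 to P42), *Slc26a4*+/- (40 cells, P26 to P33) or *Slc26a4*-/- (69 cells, P24 to P44), where P is the postnatal day. The *Slc26a4*+/+ cells fell into the groups named below as 60, 23, 15, 14, 11 and 49 cells (IMC-like, SC-like, RC-like, MC-like, *Crhbp*-led and mixed). No other allele or treatment is given. No mouse was named, so each genotype counted as 1 sample, cells are not replicates, and no p-value is given. The estimated counts per cell ranged from 1848 to 7932729, and 20 cells, all *Slc26a4*+/+, held fewer than 100000. The cells were sequenced on 4 run dates, and age groups (cells of 1 genotype, run date and age) hold different mice, since a mouse is collected at a single age. An SD below is the spread over cells, and the range of age-group means is the nearest measure of the spread between mice. Levels are CPM, the counts of a gene scaled to the total of its cell, which compare 1 gene between cells. TPM, the other scale, is corrected for transcript length and was used to compare genes.

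Clusters built without the 10 genes and the other Wnt pathway genes were named from marker lists. Intermediate cell-like (IMC-like) clusters also held 23 *Slc26a4*+/- and 35 *Slc26a4*-/- cells, spindle cell-like (SC-like) and root cell-like (RC-like) clusters held 34 of all genotypes each, and a marginal cell-like (MC-like) cluster held 21. A further cluster of 17 cells matched no list and is called the *Crhbp*-led cluster after its leading gene. The remaining 57 cells, led by hemoglobin and neutrophil genes and mostly from run date 1, formed a mixed cluster that was not compared. In the IMC-like cells 9 of 12 IMC markers averaged at least 10 CPM, whereas *Tyrp1*, *Pmel* and *Kit* were below 1 CPM. *Slc26a4* RNA was not absent from cells labelled *Slc26a4*-/-. It averaged 1120 CPM in *Slc26a4*+/+ and 1222 CPM in *Slc26a4*-/- RC-like cells (9 of 15 and 7 of 13 with at least 10 counts), and 912 CPM and 174.05 CPM in SC-like cells (17 of 23 and 4 of 9). All 9 *Slc26a4*-/- SC-like cells were of run date 2, where 2 *Slc26a4*+/+ SC-like cells averaged 211.7 CPM. SC-like and RC-like cells of that run date together averaged 1749 CPM in 3 *Slc26a4*+/+ cells and 277.8 CPM in 15 *Slc26a4*-/- cells. The mean of 1749 CPM rested on 1 RC-like cell at 4825 CPM. In the study's immunostaining of the cochlea, pendrin protein was absent in *Slc26a4*-/- mice. RNA counted per gene does not show whether the protein is made. All genotype comparisons below rest on the labels alone, which these counts cannot check.

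In *Slc26a4*+/+ cells, 5 of the 10 modulators were concentrated in particular groups of cells: *Dkk3* in IMC-like cells, *Sfrp1* and *Frzb* in RC-like cells, *Rspo3* in MC-like cells and *Dkk2* in the *Crhbp*-led cluster. Of the 7 modulators that averaged at least 10 CPM over the 5 groups, these 5 were at least 4-fold above the next group by means. *Sfrp1* fell below 4-fold without run date 3 (a log2 difference of 1.75) and with medians (1.79), and *Frzb* with cell types by marker score (1.84) and with medians (0). Over all 9811 genes that met the same limit, 878 (8.95%) were. The 10 modulators were chosen with earlier results of these data known, so their count is not a test against that share. By TPM, *Dkk3* in IMC-like cells was the most abundant at 1756, followed by *Sfrp1* in RC-like cells at 1052, *Rspo3* in MC-like cells at 434, *Dkk2* in the *Crhbp*-led cluster at 416 and *Frzb* in RC-like cells at 192.1. Although the modulators did not shape the clusters, *Frzb*, *Rspo3* and *Dkk2* stood among the 10 leading genes of the RC-like, MC-like and *Crhbp*-led clusters. Clusters use the same cells, so these differences are descriptions without a test.

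**Figure D1:**
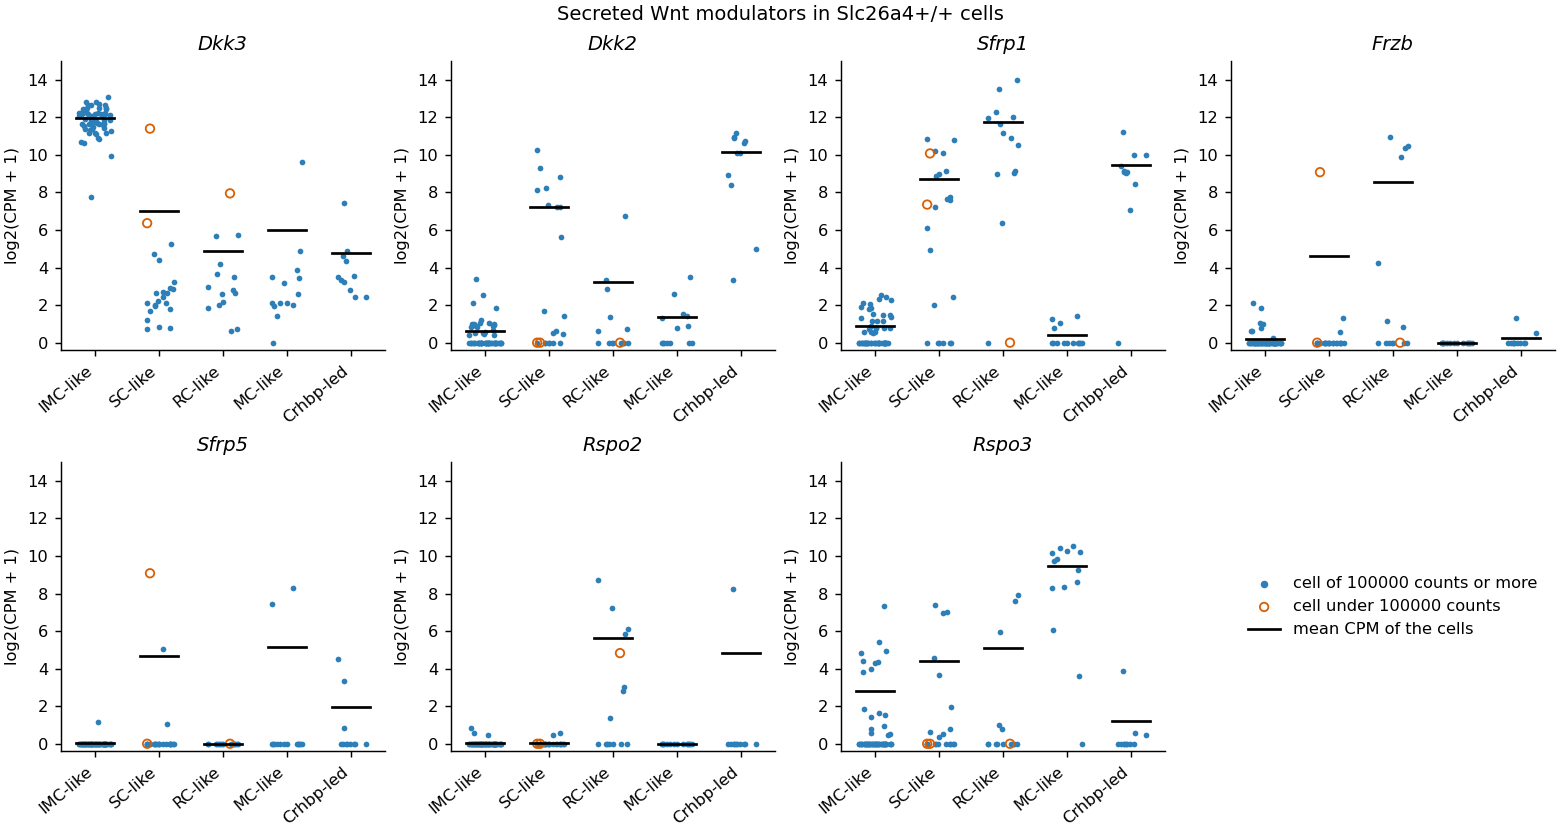
Level of 7 modulators in each *Slc26a4*+/+ cell, as log2(CPM + 1) on the vertical axis, by cell group on the horizontal axis. Dots are cells, open circles are cells under 100000 counts, and bars are the mean CPM of a group on the same scale. The 60 IMC-like cells have *Dkk3* at 220 to 8695 CPM, and the SC-like means of *Dkk3*, *Frzb* and *Sfrp5* are raised by 1 open circle.

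*Dkk3* (chr7:112116017-112159057, minus strand, GRCm38) was found in every *Slc26a4*+/+ IMC-like cell. Its level there ran from 220 CPM through a median of 3700 CPM to 8695 CPM, with a mean of 3994 ± 1669 CPM (SD, 60 cells). The lowest IMC-like cell was below 1 MC-like cell (801 CPM) and below 1 RC-like (246.8 CPM) and 1 SC-like cell with few counts. The other groups had medians of 4.23 to 10.2 CPM. Run-date means in IMC-like cells stayed between 3563 and 5217 CPM, and the 17 age-group means between 2322 and 7200 CPM. Both IMC-like clusters carried it, at 4159 ± 1838 CPM (SD, 44 cells) and 3541 ± 989 CPM (SD, 16 cells).

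The next group was the SC-like cells at a mean of 127.7 CPM, a 31.1-fold difference. That mean rested on 1 cell of 1848 counts, in which 5 counts of *Dkk3* gave 2706 CPM. Without the cells under 100000 counts the SC-like mean was 7.09 CPM (21 cells). Low *Dkk3* was widespread outside the IMC-like cells: at least 1 count was found in 59 of 60 deep cells (at least 100000 counts) of the other 4 groups, with a median of 5.26 CPM, or 0.132% of the IMC-like mean. For the 9 IMC markers of at least 10 CPM in IMC-like cells the median of this share was 0.151%, from 0 for *Mlana* to 0.319% for *Dct*, a melanin synthesis gene. The share of *Dkk3* lay within that range, and the source of these counts was not tested.

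Among deep *Slc26a4*+/+ cells, which were 60 IMC-like cells, 60 of the other groups and 32 of the mixed cluster, the genes most like *Dkk3* in log2(CPM + 1) were *Slc45a2* (Pearson's r = 0.93), which encodes a melanosomal transporter, *Gpnmb* (r = 0.93), a pigment cell glycoprotein, and *Alpl* (r = 0.91), alkaline phosphatase. These correlations are across cells that share cell groups and libraries and are given without a test.

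*Dkk2* (chr3:132085292-132180304, plus strand) was the modulator of the *Crhbp*-led cluster. Its level in these 11 *Slc26a4*+/+ cells ran from 9.25 CPM through a median of 1119 CPM to 2301 CPM, with a mean of 1143 ± 821 CPM (SD). Of the 11 cells, 10 held at least 10 counts (90.9%, exact 95% interval 58.7 to 99.8%, which like all intervals here covers counting error only). Cells of the same mouse or run date are not independent, so such intervals are too narrow. SC-like cells were split: 9 of 23 held at least 10 counts, the median was 0.546 CPM and the highest cell was 1242 CPM. The SC-like mean of 149.3 ± 292.9 CPM (SD) was 7.61-fold below that of the *Crhbp*-led cluster. In IMC-like, RC-like and MC-like cells *Dkk2* averaged 0.562, 8.27 and 1.55 CPM, and 105.8 CPM was the highest value in any of them. The genes most like *Dkk2* across the same deep cells were *Vmo1* (r = 0.70), *Ptprz1* (r = 0.67) and *Crhbp* (r = 0.65).

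*Dkk1*, the classical LRP5 and LRP6 antagonist, was near the limit of detection. Its means were between 0.0267 and 0.684 CPM in the 5 groups, and 4 cells of the whole series held at least 10 counts.

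The sequence just upstream of *Dkk2* is shown because the gene was highest in a cluster that matched no cell type list. It is the 250 bases before the start (chr3:132085042-132085291, plus strand), from RefSeq on GRCm38.p6, written 5′ to 3′. Capitals mark CTTTG, searched on both strands (CAAAG on the other), a core shared by sites of TCF and LEF factors, which carry out Wnt signaling in the nucleus. Promoters of *Dkk1*, *Sfrp2*, *Sfrp5*, *Frzb* and *Wif1* were also listed, and those of *Dkk3*, *Sfrp1*, *Rspo2* and *Rspo3* were not matched.
Dkk2: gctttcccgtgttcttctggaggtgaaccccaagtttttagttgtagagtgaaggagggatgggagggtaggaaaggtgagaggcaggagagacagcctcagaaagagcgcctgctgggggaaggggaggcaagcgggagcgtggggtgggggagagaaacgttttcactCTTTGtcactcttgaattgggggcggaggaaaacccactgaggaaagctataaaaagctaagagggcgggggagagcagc
It holds 1 match, which begins 80 bases before the start. The same letters occurred in 15958 of 32851 promoters of this length (48.6%), so their presence is a description and does not set *Dkk2* apart.

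*Sfrp1* (chr8:23411502-23449632, plus strand), whose product binds Wnts, was high in RC-like cells and also present in SC-like cells and the *Crhbp*-led cluster. The RC-like level in *Slc26a4*+/+ cells ran from 0 through a median of 1905 CPM to 16523 CPM, with a mean of 3454 ± 4692 CPM (SD, 15 cells). Of the 15 cells, 13 held at least 10 counts (86.7%, exact 95% interval 59.5 to 98.3%). The *Crhbp*-led cluster followed at 712 ± 642 CPM (SD, 11 cells, 10 of them with at least 10 counts) and SC-like cells at 413 ± 574 CPM (SD, 23 cells, 14 of them). The distance from RC-like cells to the *Crhbp*-led cluster was 4.85-fold in means, but the cells of the 3 groups overlapped, and run-date means in RC-like cells spanned 529 to 7866 CPM. *Sfrp1* averaged 0.833 CPM in IMC-like cells, none of which reached 10 counts.

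*Sfrp1* resembled *Slc26a4* itself. Of 10177 genes compared across the deep *Slc26a4*+/+ cells, *Slc26a4* had the highest correlation with it (r = 0.74), ahead of *Grb14* (r = 0.73) and *Clu* (r = 0.71). Within groups the same correlation was 0.41 over 14 RC-like cells, 0.44 over 21 SC-like cells and 0.65 over 11 *Crhbp*-led cells. Of the 14 deep RC-like cells, 9 held at least 10 counts of both genes, 4 held *Sfrp1* alone, 0 held *Slc26a4* alone and 1 held neither. Of the 21 SC-like cells, 13 held both, 1 held *Sfrp1* alone, 3 held *Slc26a4* alone and 4 held neither. Among 13 *Slc26a4*-/- RC-like cells these numbers were 5, 3, 2 and 3.

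*Frzb* (chr2:80411970-80447625, minus strand), a further Frizzled-related gene, was found in some RC-like cells of each genotype. It reached 10 counts in 5 of 15 *Slc26a4*+/+ RC-like cells, at 17.9 to 1984 CPM, and the other cells had at most 1.27 CPM. The mean was 381 ± 681 CPM (SD). The SC-like mean of 23.6 CPM again came from 1 count in the cell of 1848 counts, and no SC-like, MC-like, IMC-like or *Crhbp*-led cell of *Slc26a4*+/+ held 10 counts. Without the cells under 100000 counts the log2 difference between RC-like cells and the next group was 8.44, against 3.96 with them. The coding transcript Frzb-201 carried 84.8% of *Frzb* TPM in these cells and the 830-base processed transcript Frzb-202 the other 15.2%. *Crhr1* (r = 0.65), *Itih5* (r = 0.61) and *Krt19* (r = 0.60) were the genes most like *Frzb*.

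The remaining inhibitors were sparse. *Sfrp5* (chr19:42197971-42202252, minus strand) reached 10 counts in 2 of 14 MC-like cells, at 171.6 and 309 CPM, and in 3 of 4 *Slc26a4*+/- cells of the *Crhbp*-led cluster, at 36.9, 80.6 and 134.4 CPM. Those 3 cells were all of P33. In the same cluster 2 of 11 *Slc26a4*+/+ cells reached 10 counts, at 9.18 and 21.8 CPM. *Sfrp2* was found in 5 cells of the whole series and reached 10 counts in 3 of them, the highest being an *Slc26a4*+/- IMC-like cell at 97.7 CPM. *Wif1* was found in 0 cells of the whole series, which allows a share of up to 1.07% of cells with a count.

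*Rspo3* (chr10:29452416-29535867, minus strand) was the R-spondin of MC-like cells. Its level in 14 *Slc26a4*+/+ cells ran from 0 through a median of 734 CPM to 1472 CPM, with a mean of 711 ± 528 CPM (SD), and 12 of 14 held at least 10 counts (85.7%, exact 95% interval 57.2 to 98.2%). Run-date means spread from 180 CPM (run date 2, 4 cells) to 997 CPM (run date 3, 8 cells). RC-like cells came next at 33.2 ± 76.9 CPM (SD), a 20.8-fold difference. Most cells of the other groups had none, while 7 of 60 IMC-like cells held at least 10 counts, up to 161.5 CPM. The genes most like *Rspo3* were *Nipal1* (r = 0.75), *Kcne1* (r = 0.68), the subunit of the marginal cell potassium channel, and *Tmem45b* (r = 0.66). The span of the gene from start to end overlaps Gm20276 on its own strand and Gm48159 on the other. Whether their exons overlap was not examined, and reads of any shared exon parts could not be told apart.

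The single *Slc26a4*+/+ MC-like cell without *Rspo3* also stood apart in *Dkk3*, at 801 CPM. Its summed IMC markers were 170.5 CPM, below the *Slc26a4*+/+ MC-like median of 236.1 CPM. A *Slc26a4*-/- MC-like cell with 555 CPM of *Dkk3* kept *Rspo3* at 523 CPM and had the highest IMC marker sum of the MC-like cells, 3866 CPM.

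*Rspo2* (chr15:43020794-43170826, minus strand) was sparse and was found mainly in RC-like cells. A count of 10 was reached in 5 of 15 *Slc26a4*+/+ RC-like cells, the median was 1.57 CPM, the highest cell was 416 CPM and the mean was 48.7 ± 110 CPM (SD). The *Crhbp*-led mean of 27.3 CPM was due to 1 cell at 300.6 CPM, and the remaining 10 cells were at 0. The order of these 2 groups rested on single run dates: the log2 difference was 0.81 over all cells, -0.92 without run date 1 and 5.79 without run date 3. No *Slc26a4*+/+ MC-like cell had a count, and the SC-like and IMC-like means of that genotype were below 0.1 CPM. In *Slc26a4*-/- IMC-like cells the mean was 2.46 CPM, with 1 cell at 84.2 CPM. Both R-spondins were read from a single coding transcript each.

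Modulators occurred together in single RC-like cells. Among 33 deep RC-like cells of all genotypes, 26 held at least 10 counts of *Sfrp1*, 17 of *Frzb* and 17 of *Rspo2*. *Sfrp1* and *Frzb* shared 12 cells, *Sfrp1* and *Rspo2* shared 13, and *Frzb* and *Rspo2* shared 10. The 4 RC-like cells with at least 10 counts of *Rspo3* all held *Frzb*, at 709 to 1984 CPM. The summed level of marginal cell markers was 28300.4 and 4113 CPM in 2 of these cells, above the other 30 (13.2 to 1769 CPM), and 1315 and 196.5 CPM in the other two, within their range. The part of marginal cell transcripts was not tested. In the *Crhbp*-led cluster 14 of 17 cells held both *Dkk2* and *Sfrp1*. Genes found in so many cells of a group share some of them in any case, and an excess over that was not tested.

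The pathway around these modulators was described with a list of 72 other Wnt genes. None of the 9 other secreted modulators on it, such as *Sfrp4*, *Rspo1* and *Notum*, averaged 10 CPM in any named cell type. Of the other genes 35 could be compared, and 4 (*Wnt2b*, *Wnt11*, *Porcn* and *Lgr5*) were at least 4-fold above the next group, beside 8.95% of all genes.

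Among 19 ligands 7 averaged at least 10 CPM in a named type. *Wnt5a* was highest in IMC-like cells at 522 CPM and was present in all groups. *Wnt7b* was similar in RC-like (240.6 CPM) and SC-like cells (225.4 CPM) and averaged 0.0799 CPM in IMC-like cells. *Wnt2b* at 85.8 CPM and *Wnt7a* at 48.6 CPM were found in RC-like cells, and *Wnt11* at 59.4 CPM in SC-like cells, with the other groups below 0.2 CPM in each case. These means came from few cells: at least 10 counts were held by 3 and 2 of 15 RC-like cells and by 9 of 23 SC-like cells.

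Among the receptors, *Lrp5*, whose product is bound by DKK1 and DKK2, was highest in RC-like cells at 1174 CPM and *Lrp6* in the *Crhbp*-led cluster at 532 CPM. *Kremen1*, which encodes a DKK co-receptor, was highest in RC-like cells at 291.6 CPM and was found in all groups. Of the R-spondin receptors, *Lgr5* averaged 118.8 CPM in RC-like cells and at most 2.26 CPM elsewhere, and *Lgr4* was highest in MC-like cells at 62.02 CPM. Only 4 of 15 RC-like cells held at least 10 counts of *Lgr5*. *Rnf43* was found in the *Crhbp*-led cluster (192.2 CPM) and RC-like cells (176.8 CPM). *Axin2* and *Nkd1*, feedback targets of the pathway, were highest in the *Crhbp*-led cluster (105.5 CPM) and in IMC-like cells (76.8 CPM). At least 10 counts of *Axin2* were held by 3 of 11 *Crhbp*-led and 16 of 60 IMC-like cells.

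**Figure D2:**
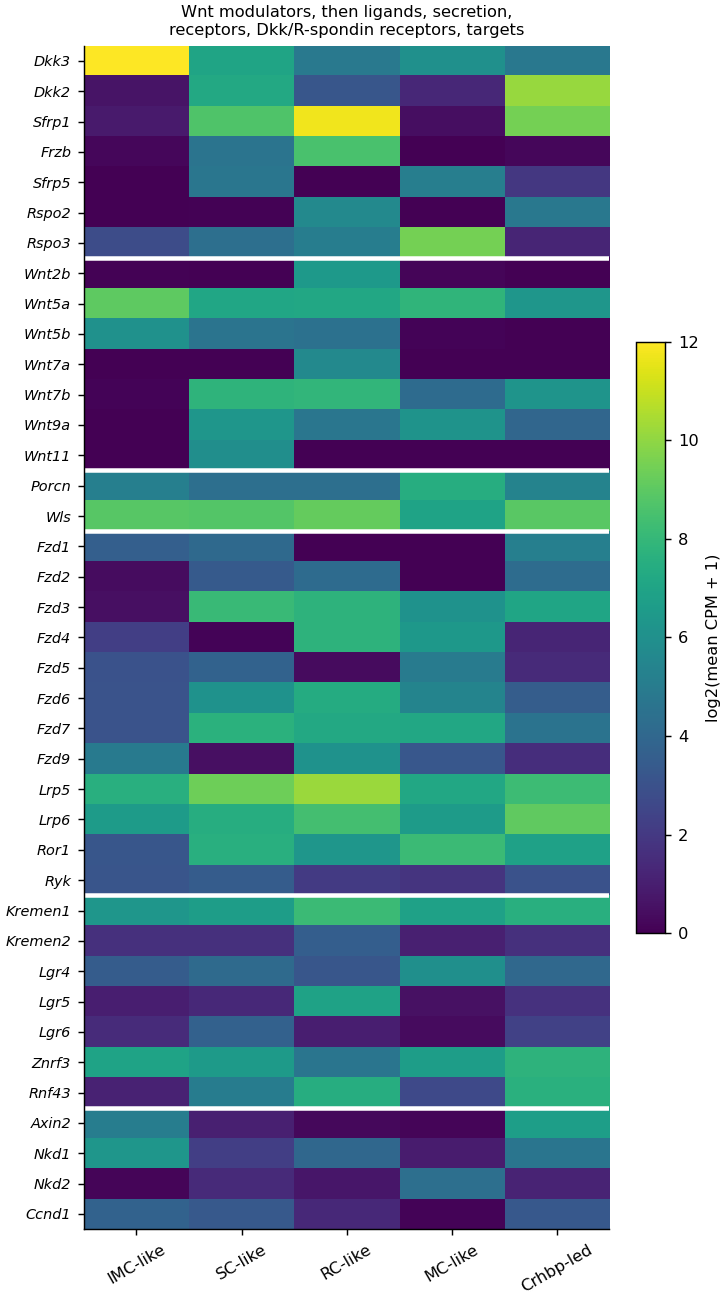
Mean level of 7 modulators (top block) and of Wnt ligands, secretion genes, receptors, Dkk and R-spondin receptors with their E3 ligases, and targets (lower blocks) in *Slc26a4*+/+ cells, as color for log2(mean CPM + 1), with cell groups on the horizontal axis. *Dkk3* is brightest in IMC-like cells, *Sfrp1* in RC-like cells, and *Lgr5* is seen in RC-like cells.

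Genotypes were compared within run dates, because run dates held different genotypes. *Dkk3* in IMC-like cells stayed within 2-fold. On run date 2, *Slc26a4*-/- cells ran from 1342 through a median of 3361 to 6936 CPM (mean 3357 CPM, 23 cells) and *Slc26a4*+/+ cells from 1573 through 4602 to 7180 CPM (mean 4465 CPM, 12 cells), a log2 difference of -0.41. On run date 4, the means were 3785 CPM (12 cells) and 4060 CPM (7 cells), a log2 difference of -0.10, and *Slc26a4*+/- cells averaged 4703 CPM (23 cells). Age-group means overlapped in each case, at 2970 to 3855 CPM against 2322 to 6077 CPM on run date 2. Among all genes of IMC-like cells 47.3% were past 2-fold in either direction on run date 2 and 41.9% on run date 4. *Dkk3*, which held at least 10 counts in every IMC-like cell of each genotype, was within 2-fold on both. In the comparison of *Slc26a4*+/- with *Slc26a4*+/+ cells it was also within 2-fold, beside 39.4% of genes that were past it.

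**Figure D3:**
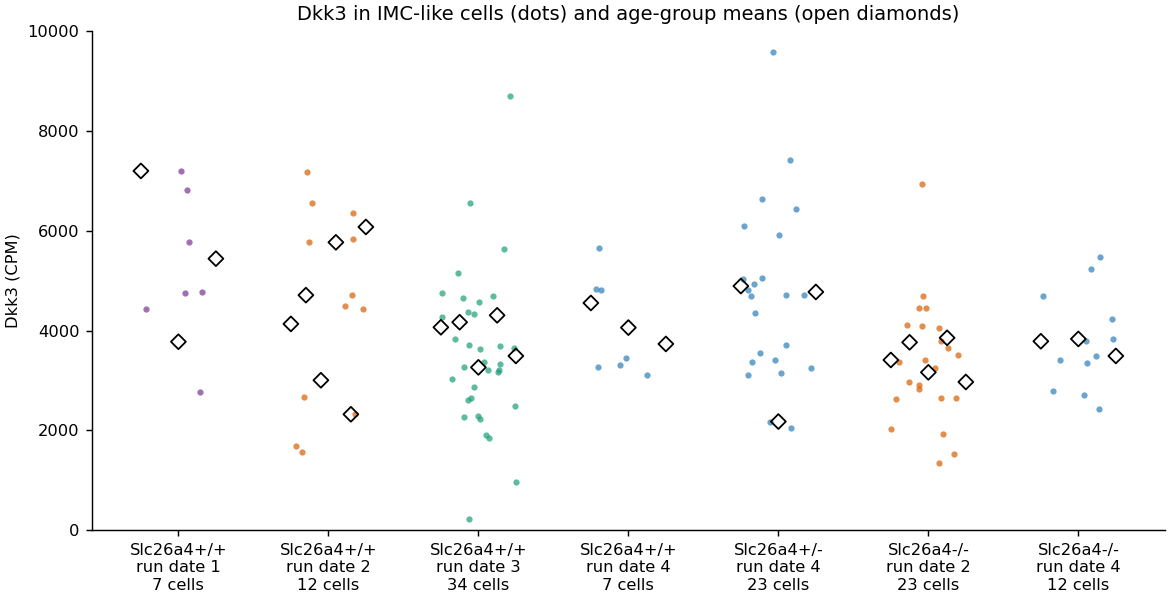
*Dkk3* in each IMC-like cell (dots, CPM on the vertical axis) by genotype and run date, with the means of age groups as open diamonds. Age-group means of *Slc26a4*-/- cells, from 2970 to 3855 CPM, lie within those of *Slc26a4*+/+ cells, from 2322 to 7200 CPM.

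In RC-like cells, *Sfrp1* was lower and *Rspo2* higher in cells labelled *Slc26a4*-/- than in *Slc26a4*+/+ cells of run date 4, the run date with several cells of each. The 5 *Slc26a4*+/+ cells had *Sfrp1* at 502, 557, 3204, 4003 and 4213 CPM. The 7 *Slc26a4*-/- cells ran from 1.40 CPM through a median of 236.4 CPM to 1537 CPM. The cells overlapped, while the 2 age-group means of *Slc26a4*-/- (125.5 and 941 CPM) were below both of *Slc26a4*+/+ (1881 and 2906 CPM), with overall means of 359 and 2496 CPM and a log2 difference of -2.80. The 6 *Slc26a4*+/- cells, with a mean of 1187 CPM, had age-group means of 224.6 to 1558 CPM, also below those of *Slc26a4*+/+, where 60.2% of genes were past 2-fold.

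*Rspo2* moved the other way. The *Slc26a4*+/+ cells had 0, 0, 1.57, 5.91 and 56.8 CPM, and the *Slc26a4*-/- cells ran from 20.1 through 72.4 to 583 CPM, so that all but 1 *Slc26a4*+/+ cell were below all *Slc26a4*-/- cells. Means were 12.8 and 181.5 CPM, a log2 difference of 3.72, and age groups did not overlap (159.5 and 190 CPM against 1.97 and 29.2 CPM). The share of all genes whose age groups did not overlap was not computed. With few age groups per label and no such share, it cannot be said whether this sets *Rspo2* or *Sfrp1* apart from other genes. *Slc26a4*+/- cells were spread from 0 to 1021 CPM and overlapped both.

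At P34, the age at which both labels had RC-like cells of that run date, all 5 *Slc26a4*-/- cells (1.40 to 255.2 CPM) were below all 3 *Slc26a4*+/+ cells (502 to 4213 CPM) for *Sfrp1*, and all were above them for *Rspo2* (20.1 to 583 CPM against 0 to 5.91 CPM). This age was chosen after the values were seen. Of 8006 genes, 0.987% separated in the direction of *Sfrp1* and 11.5% in that of *Rspo2*.

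Such differences were common in these few cells. In RC-like cells of run date 4, 58.3% of genes were past 2-fold (32.1% higher and 26.2% lower in *Slc26a4*-/- cells). Of the modulators, 5 averaged at least 10 CPM over both labels, and all 5 were past 2-fold, 1 higher and 4 lower. *Dkk2* and *Rspo3* met that limit only through a few *Slc26a4*+/+ cells, so their lower call followed from the limit. The count of 5 is therefore not a comparison with the share of all genes. Depth moved with genotype, at a median of 2620021 counts and 9246 genes in *Slc26a4*-/- cells and 788847 counts and 7644 genes in *Slc26a4*+/+ cells. *Slc26a4* RNA was higher in the *Slc26a4*-/- cells, at 1898 against 754 CPM, although *Sfrp1* was lower there. RC markers had medians of 22110.5 CPM in *Slc26a4*-/- and 22530.1 CPM in *Slc26a4*+/+ cells. Other measures also moved with the label: the median mitochondrial share was 0.124% against 0.609%, and summed markers had medians of 754 against 247.2 CPM for IMC, 325.2 against 1392 CPM for basal cells and 53.9 against 0 CPM for fibrocytes. The part of depth, mitochondrial share and these markers in the differences was not tested.

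The other modulators of RC-like cells were less even. The run date 4 means of *Frzb* were 300.2 CPM for *Slc26a4*-/-, 1813 CPM for *Slc26a4*+/- and 663 CPM for *Slc26a4*+/+, with overlapping age groups. The *Slc26a4*+/+ mean came from the 2 cells of P33, at 1331 and 1984 CPM, while the 3 cells of P34 had at most 1.27 CPM. *Dkk2* and *Rspo3*, which were found in 1 and 2 of the 5 *Slc26a4*+/+ cells with more than 10 CPM, averaged 0.269 and 0.214 CPM in the *Slc26a4*-/- cells. Marginal cell markers were also higher in these *Slc26a4*+/+ cells, at 327.2 to 4113 CPM against 21.8 to 631 CPM, and their part in the *Rspo3* difference was not tested.

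**Figure D4:**
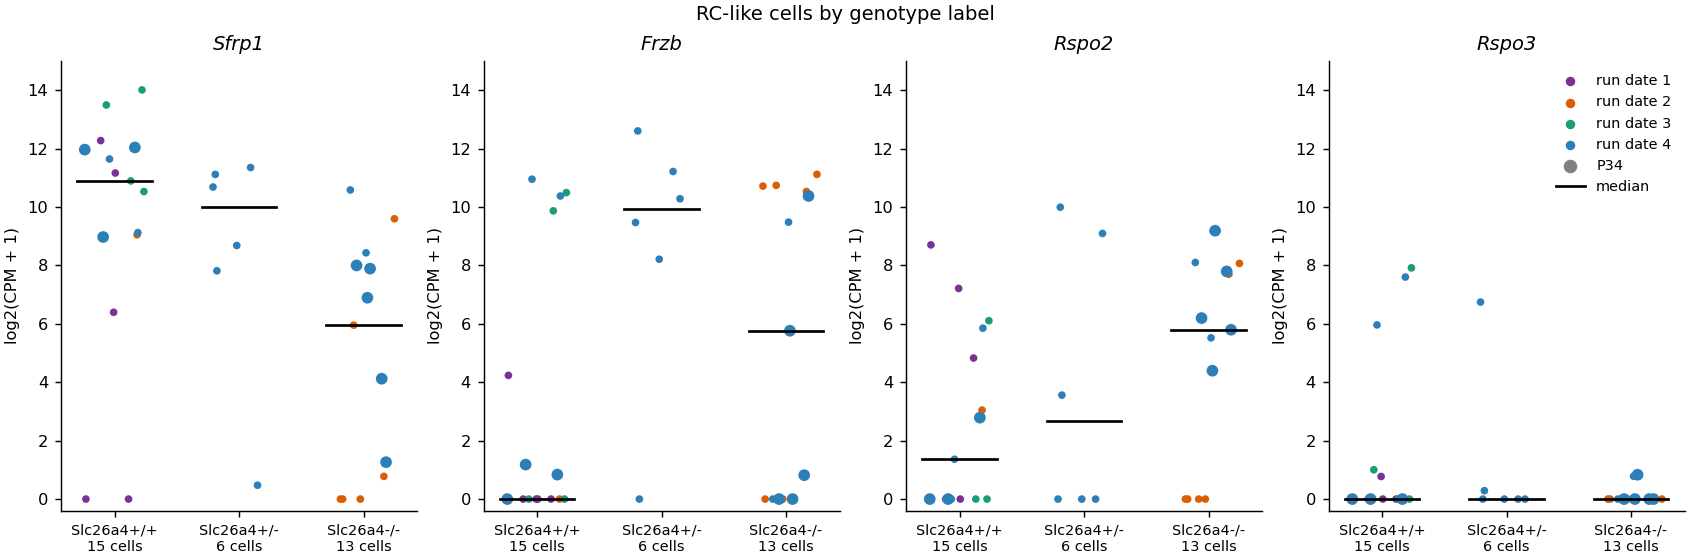
*Sfrp1*, *Frzb*, *Rspo2* and *Rspo3* in each RC-like cell, as log2(CPM + 1) on the vertical axis, by genotype label on the horizontal axis. Color gives the run date, large dots are cells of P34 and bars are medians. For *Sfrp1* the *Slc26a4*-/- median (61.1 CPM) lies below that of *Slc26a4*+/+ (1905 CPM), and for *Rspo2* the large *Slc26a4*-/- dots lie above the large *Slc26a4*+/+ dots.

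Over all run dates, at least 10 counts of *Sfrp1* were found in 8 of 13 *Slc26a4*-/- RC-like cells (61.5%, exact 95% interval 31.6 to 86.1%) and in 13 of 15 *Slc26a4*+/+ cells. For *Rspo2* it was 9 of 13 (69.2%, interval 38.6 to 90.9%) and 5 of 15 (33.3%, interval 11.8 to 61.6%). *Slc26a4*+/- cells had 3 of 6. Of the 15 *Slc26a4*+/+ cells, 5 were of run date 1 and 4 of run date 3, which held no *Slc26a4*-/- RC-like cell. These shares pool run dates and cells are not replicates, so the intervals do not compare genotypes and the shares are descriptions only.

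With SC-like and RC-like cells pooled as pendrin cells, run date 4 gave log2 differences of -2.24 for *Sfrp1* (7 and 8 cells) and 4.34 for *Rspo2*, where 53.5% of genes were past 2-fold. Age groups overlapped for *Sfrp1* and not for *Rspo2*, again without a share over all genes. The *Slc26a4*-/- cells were all RC-like, while 3 of the 8 *Slc26a4*+/+ cells were SC-like. Without the *Slc26a4*-/- cells of P34 the *Sfrp1* difference fell to -0.85. On run date 2, 15 *Slc26a4*-/- cells stood against 3 *Slc26a4*+/+ cells, and *Sfrp1* averaged 165.7 and 240.5 CPM, a log2 difference of -0.54. It was 0.25 with age groups weighted equally and 0.92 in SC-like cells alone, so its direction was not settled. *Rspo2* was at 31.7 and 2.58 CPM, and *Frzb* at 494 and 0.155 CPM, with overlapping age groups, and 75.7% of genes were past 2-fold. The 3 *Slc26a4*+/+ cells make this run date the less certain.

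In SC-like cells *Dkk2* was found in 9 of 23 *Slc26a4*+/+ cells and in 0 of 9 *Slc26a4*-/- cells at 10 counts, where the highest value was 1.78 CPM. All the *Slc26a4*-/- cells were of run date 2, which held 2 *Slc26a4*+/+ SC-like cells, at 0 and 48.7 CPM, and 80.9% of genes were past 2-fold in that comparison. In MC-like cells *Rspo3* was at 299, 367, 386, 523 and 630 CPM in *Slc26a4*-/- cells and at 352 and 1127 CPM in *Slc26a4*+/- cells, all within the range of *Slc26a4*+/+ cells. On run date 2 alone the 2 *Slc26a4*-/- cells averaged 577 CPM against 180 CPM in 4 *Slc26a4*+/+ cells, where 76.3% of genes were past 2-fold. *Dkk2* in the *Crhbp*-led cluster was at 722, 730, 2417 and 3375 CPM in *Slc26a4*+/- cells and at 642 and 1016 CPM in *Slc26a4*-/- cells. The *Slc26a4*-/- cells lay within the range of *Slc26a4*+/+ cells, and the highest *Slc26a4*+/- cells above it.

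Of the 72 other Wnt genes, 29 could be compared between *Slc26a4*-/- and *Slc26a4*+/+ RC-like cells of run date 4. 7 were higher and 9 lower by at least 2-fold, beside 58.3% of all genes past 2-fold in either direction. The 29 genes had a median log2 difference of -0.38, beside 0.15 over all genes. *Lgr5*, the R-spondin receptor gene of RC-like cells, averaged 784 CPM in *Slc26a4*-/- cells (1.73 to 2592 CPM) and 17.9 CPM in *Slc26a4*+/+ cells (0 to 82.6 CPM). The log2 difference was 5.38, and age groups did not overlap, for which no share over all genes was computed. The *Slc26a4*+/+ RC-like cells of all run dates averaged 118.8 CPM of *Lgr5*, above those of run date 4. On run date 4 *Lgr5* was also past 2-fold higher in *Slc26a4*+/- than in *Slc26a4*+/+ cells, and in *Slc26a4*-/- than in *Slc26a4*+/- cells. *Axin2* averaged 54.6 CPM in *Slc26a4*-/- and 0.568 CPM in *Slc26a4*+/+ cells, although its median in *Slc26a4*-/- cells was 0.382 CPM. *Lrp5* (491 and 710 CPM) and *Kremen1* (247.8 and 465 CPM) were within 2-fold.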

How the data were processed

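Single cells of the stria vascularis were profiled with Smart-Seq2, and the authors deposited estimated counts per gene for the whole series and, for each cell, estimated counts and TPM per transcript. The submitters' processing notes name kallisto (version not given in the sources used here) and GRCm38 (mm10). A further 17 columns of the gene table belonged to no labelled cell and were not used. CPM was computed from the gene counts of each cell. TPM was summed over transcripts for 30736 genes. Of 98492 transcripts, 1376 had no gene in the GENCODE M21 annotation used here and held a median of 0.691% of counts. The library does not mark strand.

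Cells were clustered with Seurat 5.3.0 in R 4.3.3 (2000 variable genes, of which 1882 were used, 10 principal components, resolution 0.8). The 10 modulators, 72 other Wnt genes and the genes of the study's own lists (601 names in all) were left out. Columns of fold changes and p-values from the study's comparisons served only as sources of those names. Clusters were named for the marker list that led in 80% or more of their cells, if 3 or more of the list's genes were found. No doublet caller was run, and 34 cells had their 2 best scores within 0.25.

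Groups of cells were compared over 9811 genes with a mean of at least 10 CPM over the 5 groups, on the scale of log2(mean CPM + 1), and a gene was called at 4-fold between groups of cells and at 2-fold between genotypes. Fold differences in the text are on this scale. Values were computed with Python 3.11.15, numpy 2.4.6, pandas 2.3.3 and scipy 1.17.1. Genotypes were compared within run dates, which are given by the names of the deposited data. With 1 sample per genotype no test was run. Shares carry exact (Clopper-Pearson) 95% intervals.

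The genes named are the 10 modulators, genes of the Wnt list of at least 10 CPM in a named type, and the 3 genes most correlated with each modulator of at least 50 CPM. The modulators and the lists were chosen with earlier results of these data known. The alternatives tried were other cell filters, resolutions, cell types by marker score, scalings, medians, and leaving out each run date or age group.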

Additional observations from a re-analysis of the deposited data

Results flagged for a closer look

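In groups of 4 to 10 cells, 13 pairs of a modulator and a group were examined, and in 6 pairs, from 3 groups, a single cell lay far from the others. The limit used flags about 1 in 20 for values with a normal distribution, which these CPM with many zeros do not have. Pairs from the same cells are also not independent. A pair was examined only at a mean of at least 10 CPM, which a single high cell can bring about. The 6 of 13 pairs are therefore a description without a chance rate. In the 9 SC-like *Slc26a4*-/- cells this held for *Sfrp1* (1188 CPM, the nearest cell at 305 CPM), *Frzb* (294.3 CPM, nearest 3.87 CPM), *Dkk3* (153.2 CPM, nearest 71.9 CPM) and *Rspo3* (67.8 CPM, nearest 23.2 CPM). In the 6 RC-like *Slc26a4*+/- cells 1 cell had *Rspo3* at 106.5 CPM, with the nearest at 0.22 CPM. In the 5 MC-like *Slc26a4*-/- cells 1 cell had *Dkk3* at 555 CPM, with the nearest at 15.1 CPM, and this is the cell with the highest sum of IMC markers among MC-like cells.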

How the results depend on the processing

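Under the alternatives 25 values moved past a set limit. For differences between groups of cells the limit was the SD over run dates. For differences between genotypes it was the larger SD of the log2 age-group means. Counts of genes moved if they changed by more than 1.5 times, and shares if they left their exact interval. No difference past its fold limit changed sign, but smaller ones did: *Rspo2* and *Sfrp5* between groups of cells (ranges below, and -0.78 for *Sfrp5* by marker score), *Frzb* in pendrin cells of run date 4 (7.46 without *Slc26a4*+/+ P33, 7.37 at P34 alone, 0.12 by marker score), *Sfrp1* on run date 2 (0.25 with age groups weighted equally, 0.92 in SC-like cells alone) and *Dkk3* between *Slc26a4*+/- and *Slc26a4*+/+ IMC-like cells (0.21 to -0.06 with age groups weighted equally). The log2 difference between the highest and the next group moved for *Dkk3* (4.96) to 2.52 with cell types by marker score and 8.37 with medians, for *Frzb* (3.96) to 8.44 in cells of at least 100000 counts, 8.34 in cells of at least 2500 genes and under 3% mitochondrial counts and 0 with medians, for *Rspo3* (4.38) to 9.52 and for *Dkk2* (2.93) to 9.50 with medians. Leaving out 1 run date gave 3.10 to 7.85 for *Frzb*, the highest without run date 3, 4.74 to 5.03 for *Dkk3*, 3.77 to 4.82 for *Rspo3*, 2.76 to 4.08 for *Dkk2*, 1.75 to 2.64 for *Sfrp1*, -0.92 to 5.79 for *Rspo2* and -2.32 to 0.79 for *Sfrp5*. At resolution 0.4 the *Crhbp*-led cluster joined the SC-like cells and gave no value for *Dkk2*.

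In pendrin cells of run date 4, the *Sfrp1* difference between *Slc26a4*-/- and *Slc26a4*+/+ was -4.52 in RC-like cells of P34 alone, and -3.75 to -0.85 when 1 age group was left out. *Frzb* ranged from -1.14 to 7.46 and *Rspo2* from 3.85 to 6.39. On run date 2 *Sfrp1* ranged from -1.37 to -0.13. *Dkk3* in IMC-like cells ranged from -0.50 to -0.23 on run date 2 and from -0.19 to -0.03 on run date 4. With no limit on the mean CPM, the genes past 2-fold rose from 4014 to 6791 and from 3506 to 5971 in IMC-like cells on run dates 2 and 4, and from 6030 to 9598 and from 4845 to 7474 in pendrin cells, since more genes were tested. RC-like cells alone, SC-like cells alone, P34 alone and the comparison of named cell types alone were chosen after seeing the data. No paired analysis was possible because replicate numbers are single to each cell and are not shared between genotypes. Depth limits the SC-like means, where 1 count in the cell of 1848 counts is worth 541 CPM.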

Other observations

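In the mixed cluster, 18 *Slc26a4*+/+ cells scored highest for IMC markers. Their *Dkk3* level ran from 1325 through a median of 5150 to 8736 CPM, and all held at least 10 counts. The highest *Dkk3* of any cell, 16487 CPM, was also in the mixed cluster.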
